A study of Mus musculus with 8 samples.

Results

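The genes described are members of the S100 family in mouse blood monocytes: S100a1, S100a4, S100a6, S100a8, S100a9, S100a10, S100a11 and S100a13. A probe set, the group of short probes that reads one transcript on the array, was used only where it carried exactly 1 gene symbol, and where a gene had several, the one with the highest 8-array mean was taken. This rule measured 7 of the 8 genes, out of 18193 genes in all. S100a11 was not measured, because its only probe set also carried the symbols Gm12854 and S100a11-ps.

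The study used male C57BL/6 mice given fluorescent latex beads of 1 µm into a vein. Their blood monocytes were sorted 4 days later into nonclassical cells (Gr1lo, low in Ly-6C) and classical cells (Gr1hi, high in Ly-6C), each with or without beads. The 4 groups were Gr1lo with beads, Gr1lo without beads, Gr1hi with beads and Gr1hi without beads. Each had 2 arrays, called biological replicates in the series text, with no number of mice or cells per array, and this number of arrays limits precision. Clodronate liposomes, which deplete phagocytes, were given 3 days before the beads. The series text names no subset for this step, whereas the treatment protocol reserves it for labelling classical cells, so Gr1lo and Gr1hi groups may also differ in this treatment.

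Expression is given in log2 units, so that 1 unit is a doubling of signal. A background level of 6.98 was set at the 95th percentile of 114 genes for odour, pheromone and taste receptors and keratin-associated proteins, by their 8-array means. Array medians lay between 6.12 and 6.19, and 8615 to 8865 genes per array were above background. Correlations across probe sets were 0.9935 to 0.9963 within a group and 0.9714 to 0.9776 between the subsets. The listed markers followed the labels: all 12 measured nonclassical genes were called higher in Gr1lo than in Gr1hi cells, with beads and without. Of 9 classical genes, 8 were called lower with beads and 7 without. The lists were chosen with earlier results of these data known, so this is no independent check of the sort. A call here is an adjusted p under 0.05 over all genes. By this rule 11.8% of all genes were called higher in Gr1lo cells with beads and 10% without, and 14.6% and 13.6% lower. The 2 arrays of Gr1lo cells without beads stood apart from each other in several of the genes below, and results that rest on 1 of them are given without it.

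S100 proteins are small calcium-binding proteins built from a pair of EF-hand motifs, and most work as dimers. S100A8 and S100A9 pair into calprotectin, an abundant cytosolic protein of neutrophils and classical monocytes that binds zinc and manganese and, once released, acts as an alarmin through TLR4 and RAGE. The others act mostly inside the cell, where they bind annexins, the cytoskeleton and other partners, and several are also released.

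S100a8 and S100a9 were the S100 genes that set the subsets furthest apart. S100a8 measured 7.74 and 8.19 in Gr1lo cells with beads and 8.04 and 7.17 in Gr1lo cells without beads, against 12.64 and 12.53 in Gr1hi cells with beads and 13.08 and 13.25 in Gr1hi cells without beads. All 4 Gr1lo arrays were therefore more than 4 units under all 4 Gr1hi arrays, and the Gr1lo arrays with and without beads overlapped. S100a9 measured 7.47 and 7.89 in Gr1lo cells with beads and 6.94 and 5.52 in Gr1lo cells without beads, against 11.48 and 11.19 in Gr1hi cells with beads and 12.18 and 12.44 in Gr1hi cells without beads. Both Gr1lo arrays without beads lay under the background level for S100a9, so folds against that group are given as bounds, with the background level in its place. In both genes Gr1hi cells without beads were highest.

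**Figure D1:**
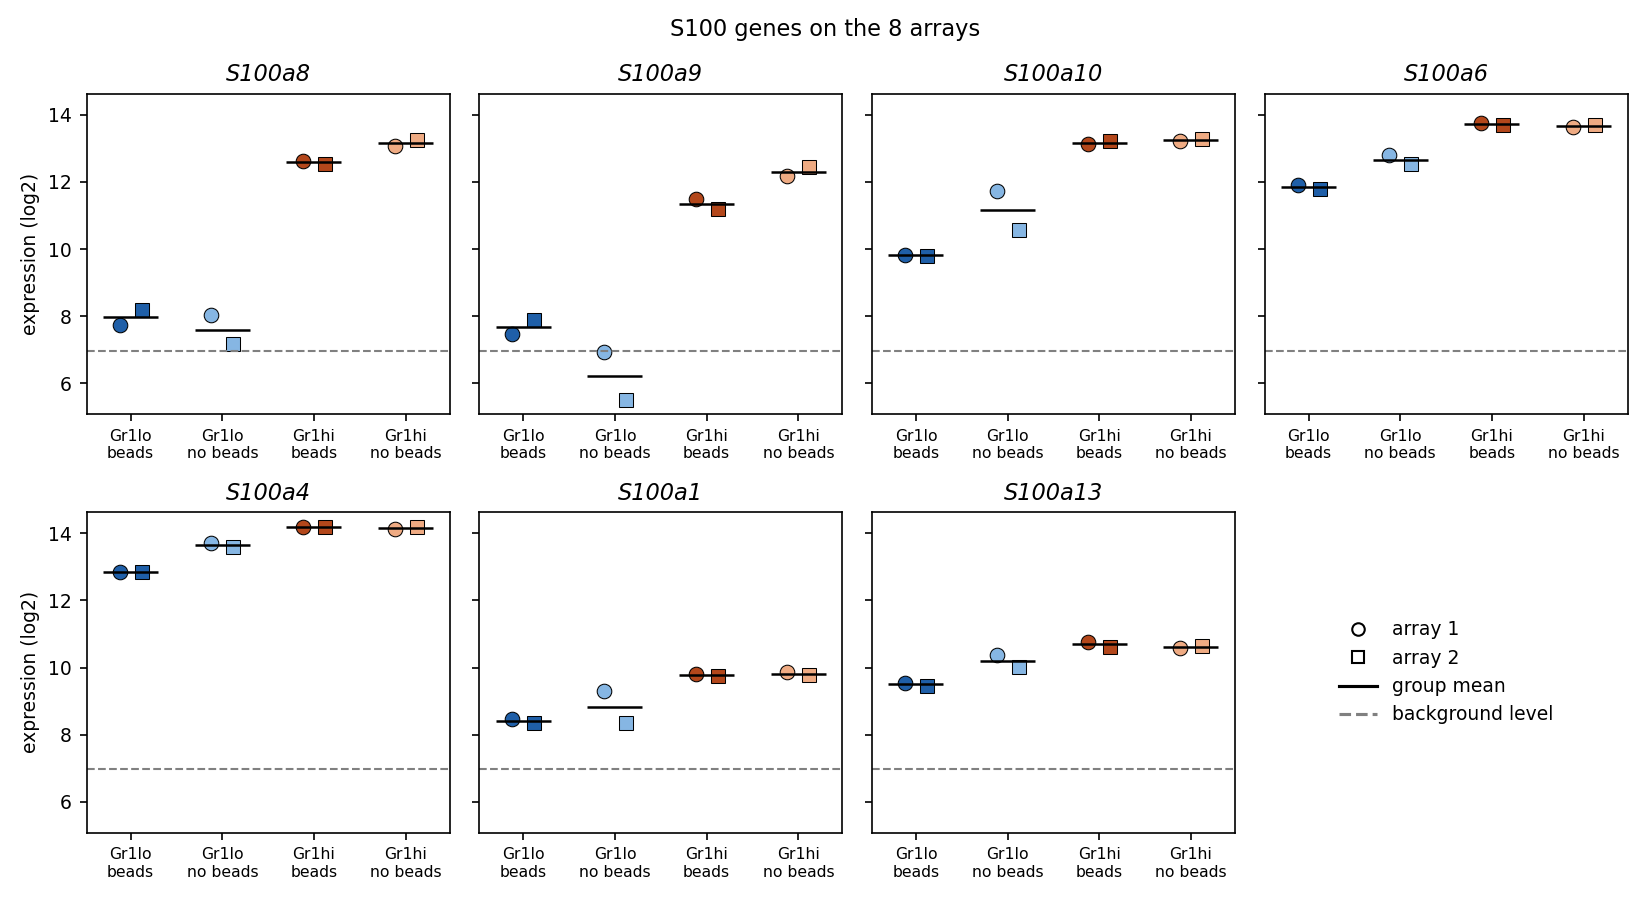
Expression (log2, vertical axis) of the 7 measured S100 genes on each array, by group; circles and squares are arrays 1 and 2, the bar is the group mean and the dashed line the background level of 6.98. S100a8 and S100a9 drop by several units in both Gr1lo groups, whereas in the other 5 genes Gr1lo cells with beads are lowest on average and the 2 Gr1hi groups lie close together.

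With beads, S100a8 was lower in Gr1lo than in Gr1hi cells, with a log2 difference of −4.62 ± 0.25 (SE, n = 2 arrays each; 24.5-fold; adjusted p = 8.7e-06), and S100a9 likewise at −3.65 ± 0.38 (12.6-fold; adjusted p = 0.00021). Counted from the most negative of all 18193 estimates, S100a8 had rank 6 and S100a9 rank 16. Without beads, S100a8 was lower in Gr1lo cells at −5.57 ± 0.25 (47.4-fold; adjusted p = 3.94e-06). S100a9 was at least 40.2-fold lower (adjusted p = 2e-05), with measured means of 6.23 in Gr1lo and 12.31 in Gr1hi cells. S100a8 and S100a9 had the lowest measured estimates of all genes, but their order is not settled, since S100a9 lies at −5.33 with the background level in place of Gr1lo cells.

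All 7 measured S100 genes were called lower in Gr1lo than in Gr1hi cells with beads, where 14.6% of all genes and 24.3% of the genes above background were called lower. All 7 were also called lower without beads, where 13.6% of all genes and 20.9% of those above background were. The 7 are not the whole family and were chosen with earlier results of these data known. Of 6 other S100 genes measured, none was called in either comparison, and only 1, S100a16, was above background. The median difference of the 7 genes was −1.88 with beads and −1.0 without, beside −0.03 and −0.07 over all genes. In sorted bulk cells, fewer cells that carry a transcript and less transcript per cell cannot be told apart.

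**Figure D2:**
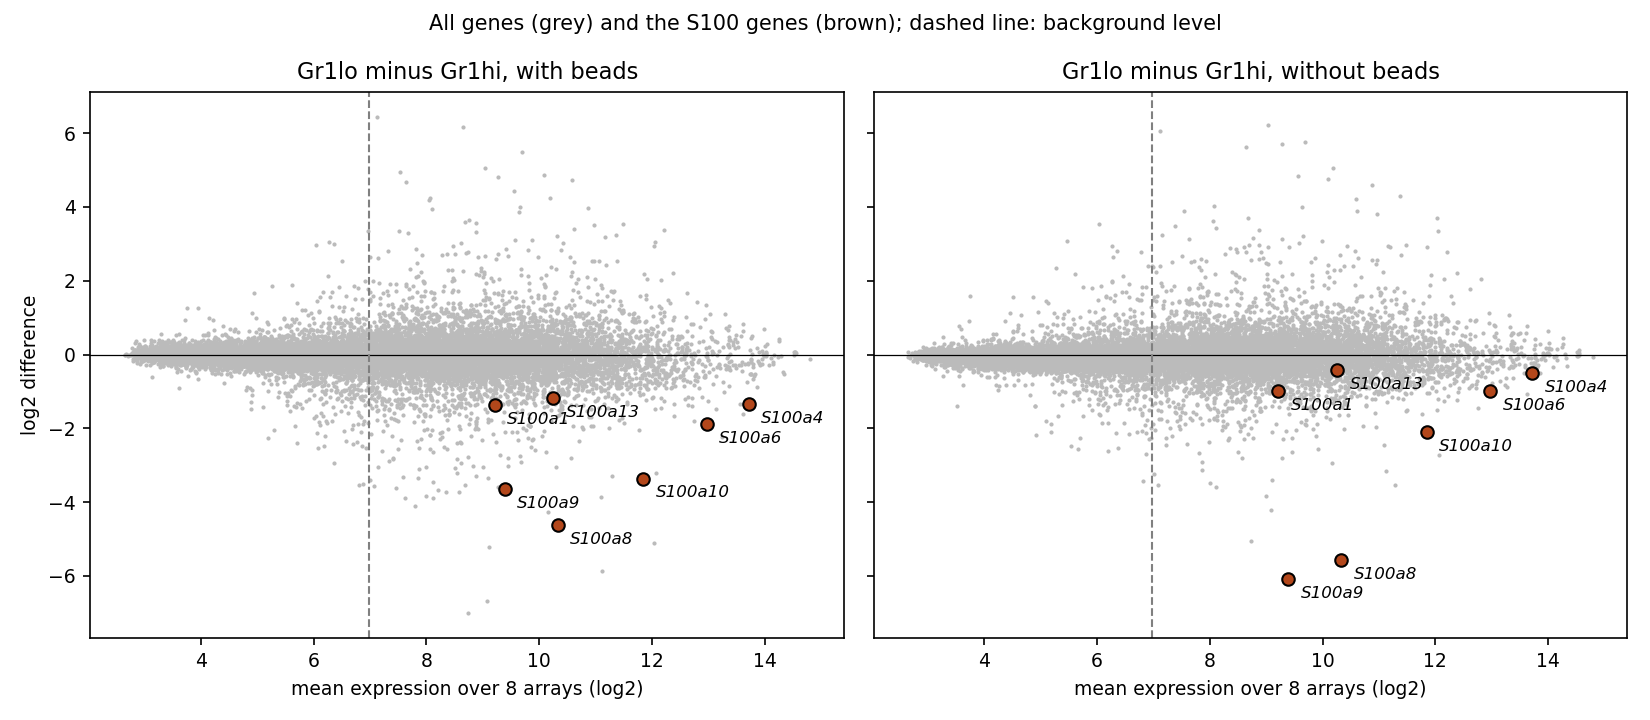
Log2 difference of Gr1lo minus Gr1hi cells (vertical axis) against the mean level over 8 arrays (horizontal axis, log2) for all 18193 genes in grey and the measured S100 genes in brown, with beads on the left and without beads on the right. With beads the 7 genes lie between −4.62 and −1.18; without beads S100a9 and S100a8 are the lowest measured points, S100a9 from Gr1lo levels under background, and the other 5 S100 genes lie between −2.10 and −0.43.

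Calprotectin is also a product of neutrophils, whose genes were mostly lower in Gr1lo than in Gr1hi cells too. Of 20 neutrophil markers 16 were measured, and 9 of these were called lower in Gr1lo than in Gr1hi cells with beads (median −0.74) and 14 without beads (median −1.63), where 14.6% and 13.6% of all genes were. The list's mean level was 5.97 on both arrays of Gr1lo cells with beads, and ranged from 6.27 to 6.47 in Gr1lo cells without beads, from 7.43 to 7.61 in Gr1hi cells with beads and from 7.95 to 8.05 in Gr1hi cells without beads. On at least 1 array 13 of the 16 were above background. The medians use measured levels, many of them under background in Gr1lo cells. With the background level as a floor for Gr1lo cells with beads, genes were lower by at least 1.02-fold (Mmp9) to 17.1-fold (Mmp8), and Camp turned to 0.24. Mmp8, a collagenase, measured 11.06 to 11.52 on the 4 Gr1hi arrays, Lcn2 9.74 to 10.25, Prtn3, a granule protease, 9.62 to 10.21 and Cd177, a surface protein, 9.11 to 9.87. Camp and Mpo, which encode granule proteins, were above background on 2 Gr1hi arrays each, and Cxcr2, a chemokine receptor of mature neutrophils, on none of the 8. Ly6g was not measured. The part of neutrophil RNA in the S100a8 and S100a9 differences was not tested.

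The promoters of both genes are shown because the 2 genes moved together, with those of S100a4 and S100a6 for comparison, the pair that was called in bead-carrying Gr1lo cells. S100a8 and S100a9 are next to each other on chromosome 3, and S100a4 and S100a6 lie on either side of S100a5, in the RefSeq annotation of GRCm38.p6. Each line holds 250 bases before to 50 after the RefSeq start site, on the gene's own strand, read 5′ to 3′. Capitals mark matches to 3 motifs searched on both strands: TTGCNNAA, which holds part of the C/EBP site, GAGGAA, the PU.1 core (TTCCTC on the other strand), and TATAAA, the TATA box.
S100a8 (chr3:90668821-90669120, + strand): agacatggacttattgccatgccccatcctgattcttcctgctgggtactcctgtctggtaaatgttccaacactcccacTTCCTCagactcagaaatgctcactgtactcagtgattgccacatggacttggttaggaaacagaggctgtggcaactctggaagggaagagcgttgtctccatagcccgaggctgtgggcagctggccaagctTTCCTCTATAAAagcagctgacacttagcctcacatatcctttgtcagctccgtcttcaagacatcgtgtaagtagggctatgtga
S100a9 (chr3:90695672-90695971, − strand): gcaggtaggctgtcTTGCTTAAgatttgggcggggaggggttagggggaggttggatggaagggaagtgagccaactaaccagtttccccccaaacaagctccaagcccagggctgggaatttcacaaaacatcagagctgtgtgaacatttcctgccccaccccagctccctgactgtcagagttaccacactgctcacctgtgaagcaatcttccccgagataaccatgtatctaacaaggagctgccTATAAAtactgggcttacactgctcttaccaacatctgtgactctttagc
S100a4 (chr3:90603520-90603819, + strand): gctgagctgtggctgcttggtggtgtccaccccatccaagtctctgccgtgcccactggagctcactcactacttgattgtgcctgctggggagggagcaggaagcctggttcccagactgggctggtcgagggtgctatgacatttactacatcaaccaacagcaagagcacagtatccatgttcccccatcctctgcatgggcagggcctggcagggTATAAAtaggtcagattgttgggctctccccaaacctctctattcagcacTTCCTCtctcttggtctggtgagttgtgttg
S100a6 (chr3:90612644-90612943, + strand): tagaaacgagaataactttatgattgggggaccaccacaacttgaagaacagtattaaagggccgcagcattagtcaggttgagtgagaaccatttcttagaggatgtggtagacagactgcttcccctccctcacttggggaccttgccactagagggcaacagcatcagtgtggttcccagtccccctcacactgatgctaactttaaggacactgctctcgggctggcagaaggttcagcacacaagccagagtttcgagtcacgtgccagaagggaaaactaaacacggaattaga

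The S100a8 window held TATAAA at −30 and TTCCTC at −170 and −36, the last of them joined to the TATA box. The S100a9 window held TTGCTTAA at −236, and its TATAAA began at the first base that RefSeq annotates as transcribed. The S100a4 window held TATAAA at −31 and TTCCTC at 19, and the S100a6 window held none of the 3. Among 32851 RefSeq promoter windows of the same length, TTGCNNAA was found in 10.8%, GAGGAA in 28.3% and TATAAA in 13.6%. A TATAAA match was therefore present in the windows of 3 of the 7 S100 genes with an entry, S100a4, S100a8 and S100a9. These matches describe the letters only.

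S100a10, a calcium-independent member that joins annexin A2 at the membrane, came next. It measured 9.83 and 9.79 in Gr1lo cells with beads and 11.73 and 10.58 in Gr1lo cells without beads, against 13.13 and 13.21 in Gr1hi cells with beads and 13.23 and 13.27 in Gr1hi cells without beads. The 4 Gr1hi arrays were within 0.2 units of each other, and the 2 Gr1lo arrays without beads differed by 1.15. The difference between Gr1lo and Gr1hi was −3.36 ± 0.29 with beads (10.3-fold; adjusted p = 8.16e-05) and −2.10 ± 0.29 without beads (4.28-fold; adjusted p = 0.00123). The second S100a10 probe set, at a mean of 11.64, ordered the groups alike, with 9.75 and 9.59 in Gr1lo cells with beads, 11.57 and 10.53 in Gr1lo cells without beads and at least 12.82 in Gr1hi cells. The third was dimmer, at 5.60 to 6.66 and so under background in all Gr1lo arrays and at 8.56 to 9.08 in Gr1hi cells.

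S100a6 (calcyclin) and S100a4 (metastasin, which binds non-muscle myosin) had bright probe sets and smaller differences. S100a6 measured 11.91 and 11.79 in Gr1lo cells with beads and 12.81 and 12.52 in Gr1lo cells without beads, against 13.75 and 13.70 in Gr1hi cells with beads and 13.63 and 13.71 in Gr1hi cells without beads. S100a4 measured 12.86 and 12.84 in Gr1lo cells with beads and 13.72 and 13.61 in Gr1lo cells without beads, against 14.20 and 14.20 in Gr1hi cells with beads and 14.13 and 14.19 in Gr1hi cells without beads. In both genes the Gr1lo arrays with beads were lower than those without, with no overlap, as in 19.4% of all genes. S100a6 was lower in Gr1lo cells, at −1.88 ± 0.11 with beads (3.67-fold; adjusted p = 1.26e-05) and at −1.0 ± 0.11 without (adjusted p = 0.000392). S100a4 was lower at −1.35 ± 0.08 with beads (2.55-fold; adjusted p = 1.42e-05) and at −0.50 ± 0.08 without (1.41-fold; adjusted p = 0.00293).

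S100a1, known for calcium handling in heart and muscle, and S100a13, which takes part in the release of FGF1, are neighbours on chromosome 3. Their RefSeq promoter windows run in opposite directions and share 204 bases, and none of the 3 motifs was found in either. S100a1 measured 8.47 and 8.35 in Gr1lo cells with beads and 9.31 and 8.35 in Gr1lo cells without beads, against 9.81 and 9.75 in Gr1hi cells with beads and 9.87 and 9.77 in Gr1hi cells without beads. S100a13 measured 9.56 and 9.47 in Gr1lo cells with beads and 10.37 and 10.02 in Gr1lo cells without beads, against 10.76 and 10.62 in Gr1hi cells with beads and 10.60 and 10.65 in Gr1hi cells without beads. The Gr1hi groups overlapped in both genes, and the Gr1lo groups overlapped in S100a1. A second, dimmer S100a1 probe set measured 6.59 and 6.89, under background, in Gr1lo cells with beads and 7.98 and 7.33 in Gr1lo cells without beads, against 8.29 and 8.36 in Gr1hi cells with beads and 8.42 on both arrays of Gr1hi cells without beads. With beads S100a1 was lower in Gr1lo than in Gr1hi cells, at −1.37 ± 0.25 (adjusted p = 0.00362) and S100a13 at −1.18 ± 0.12 (adjusted p = 0.000208). Without beads the differences were −0.99 ± 0.25 (adjusted p = 0.0202) and −0.43 ± 0.12 (adjusted p = 0.0351). Without the first Gr1lo array without beads they were −1.47 for S100a1 and −0.61 for S100a13, and without the second −0.51 and −0.25. The S100a1 call without beads was lost with trend and robust eBayes (adjusted p = 0.0671), and the S100a13 call with median centring (0.0549). These calls were the least firm: in a fit of the 4 arrays without beads alone the adjusted p was 0.0613 for S100a1 and 0.0762 for S100a13, and with either Gr1hi array without beads left out it was 0.0994 and 0.0746 for S100a1 and 0.106 and 0.152 for S100a13. For S100a13 it was also 0.155 without the second Gr1lo array without beads and 0.0509 without either bead-carrying Gr1lo array.

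The probe set shared by S100a11, Gm12854 and S100a11-ps measured 12.45 and 12.58 in Gr1lo cells with beads and 12.83 and 12.88 in Gr1lo cells without beads, against 13.50 and 13.53 in Gr1hi cells with beads and 13.59 and 13.62 in Gr1hi cells without beads. It cannot be assigned to S100a11, a binding partner of annexin A1, and enters no count.

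Beads in Gr1lo cells were accompanied by lower levels of S100a4 and S100a6. S100a4 was lower with beads than without, at −0.82 ± 0.08 (1.76-fold; adjusted p = 0.00732) and S100a6 at −0.82 ± 0.11 (1.77-fold; adjusted p = 0.0332), 2 calls among 7 S100 genes, where 0.143% of all genes were called lower. S100a10 was −1.34 ± 0.29 (adjusted p = 0.138), S100a13 −0.69 ± 0.12 (adjusted p = 0.0986) and S100a1 −0.42 ± 0.25 (adjusted p = 0.493), and none of these was called. The S100a4 call was lost without either bead-carrying Gr1lo array (adjusted p = 0.0642 and 0.0614) and in a fit of the 4 Gr1lo arrays alone (0.0913). The S100a6 call was held in only 1 of the 8 fits that left out an array, the one without the second Gr1lo array without beads, with adjusted p up to 0.208 in the rest, and it was also lost in the fit of the Gr1lo arrays alone (0.215).

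Calls of the other genes depended on which Gr1lo array without beads was used. Without the second of these arrays 5 S100 genes were called lower with beads, S100a10 at −1.92, S100a1 at −0.90, S100a13 at −0.86, S100a4 and S100a6, while 354 genes were called in all against 41 with it. Without the first array S100a10 was called at −0.77 (adjusted p = 0.0432), and S100a1 turned to 0.06. The lone array left in the group is assumed there to vary like the other groups.

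S100a8 and S100a9 had positive estimates for beads in Gr1lo cells, neither of them called. S100a8 was 0.36 ± 0.25 higher with beads than without (adjusted p = 0.567) and turned to −0.07 without the second Gr1lo array without beads. S100a9 was 1.45 ± 0.38 higher (adjusted p = 0.201), at least 1.63-fold with the background level in place of the group without beads. Its arrays did not overlap, as in 23.3% of all genes, and its size depended on the arrays under background that it was set against. It was called at 2.17 (adjusted p = 0.0068) without the first Gr1lo array without beads and was 0.74, not called (adjusted p = 0.136), without the second.

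Classical monocyte genes moved with beads in Gr1lo cells too. Of 9 measured, 5 were called lower with beads: F13a1, Vcan, Chil3, Hp and Cd177. Among all genes 0.143% were called lower. The median of the 9 was −1.48, and all 9 were lower with no overlap between arrays, as in 19.4% of all genes. Vcan and Cd177 were under background in Gr1lo cells with beads, and were at least 1.82-fold and 1.78-fold lower there. Cd177 is also in the neutrophil list. The list's mean level ranged from 9.37 to 9.44 in Gr1lo cells with beads and from 10.88 to 11.39 in Gr1lo cells without beads. Fn1, fibronectin, measured 8.49 and 8.53 with beads and 13.63 and 10.87 without, so its 2 arrays without beads were split in the same direction as those of S100a10. The same 2 arrays also differed in Pf4, a platelet gene, at 11.36 on the first and 7.70 on the second, against 7.80 to 8.68 on the other 6 arrays, and in 18S RNA, at 8.58 on the first and 10.13 on the second, against 9.58 to 10.64. None of the 7 measured platelet genes was called for beads in Gr1lo cells, with 0 at an unadjusted p under 0.05. Of 16 measured neutrophil markers, 2 were called lower with beads in Gr1lo cells, where 0.143% of all genes were. Their median was 0.01. With no overlap, 4 were lower and 2 higher, as were 19.4% and 23.3% of all genes. Of 7 dendritic cell markers, Cd209a and Clec10a were called lower with beads, where 0.143% of all genes were. Cd209a was under background with beads and at least 7.56-fold lower. Poly-A control probe sets, which read spiked RNA in this kind of assay, averaged 9.70 in Gr1lo cells with beads and 8.39 in Gr1lo cells without beads. The part of these in the S100 differences was not tested.

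**Figure D3:**
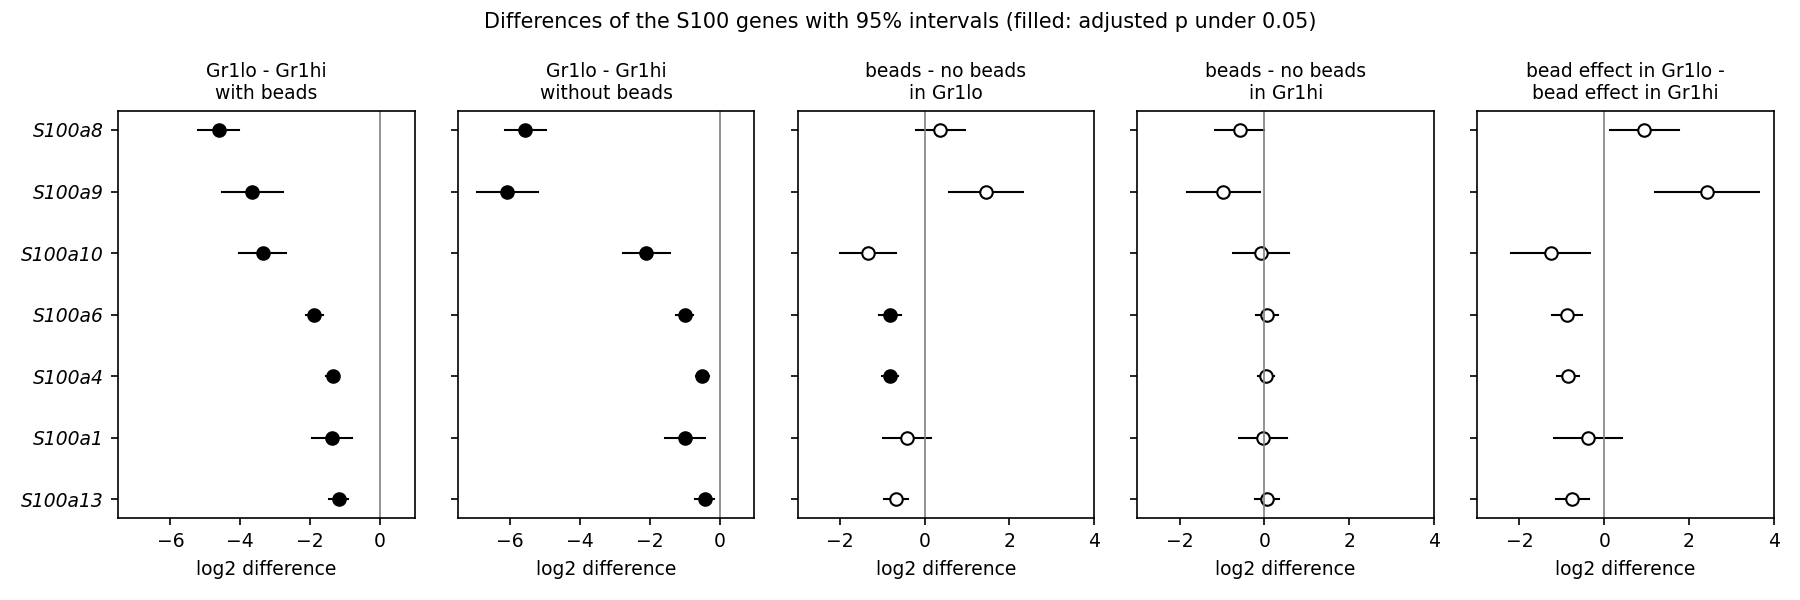
Log2 differences (horizontal axis) of the measured S100 genes with 95% intervals in 5 comparisons; filled points have an adjusted p under 0.05. All 7 points are filled for Gr1lo minus Gr1hi with beads and without, S100a6 and S100a4 for beads in Gr1lo cells, and none for beads in Gr1hi cells or for the difference between the bead effects.

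In Gr1hi cells no S100 gene was called between cells with and without beads by limma, where 0.247% of all genes were called in either direction. At an unadjusted p under 0.05 stood 2 of the 7 genes, S100a8 and S100a9, beside 1806 of all genes. S100a8 was −0.59 ± 0.25 (95% interval −1.17 to −0.01; adjusted p = 0.499) and S100a9 −0.97 ± 0.38 (−1.84 to −0.10; adjusted p = 0.448). Both arrays with beads were under both arrays without beads in each gene, as in 25% of all genes. The other 5 genes had estimates between −0.08 and 0.07, and the widest of their intervals, that of S100a10, ran from −0.74 to 0.58. Neutrophil markers moved the same way as S100a8 and S100a9 here: 2 of 16, Mmp9 and Mpo, were called lower with beads. Among all genes 0.0989% were called lower. The list's median was −0.39, and 10 markers were lower with no overlap. Mpo was under background with beads and at least 1.22-fold lower. Mmp9 measured 7.05 and 6.96 with beads, near the background level. Of 8 eosinophil and basophil markers, all under background, 3 were called lower (Mcpt8, Ms4a2 and Cpa3; median −0.78). Of 9 classical monocyte genes 8 were lower with no overlap and none was called (median −0.31; 5 at an unadjusted p under 0.05), and 4 of 12 nonclassical genes were called higher (median 0.59), where 0.148% of all genes were. Poly-A controls averaged 9.0 in Gr1hi cells with beads and 7.47 in Gr1hi cells without. Their part in these differences was not tested.

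The bead effect in Gr1lo minus that in Gr1hi cells was compared directly. By limma no S100 gene was called, where 0.044% of all genes were, although 6 of the 7 had an unadjusted p under 0.05, beside 1427 of all genes. S100a9 had an estimate of 2.42 ± 0.54 (adjusted p = 0.487), or 1.68 with its levels floored at the background level. S100a8 was 0.95 ± 0.36 (adjusted p = 0.608). The other 5 were negative: S100a10 −1.26 ± 0.41 (adjusted p = 0.579), S100a6 −0.88 ± 0.16 (0.307), S100a4 −0.85 ± 0.12 (0.0974), S100a13 −0.75 ± 0.17 (0.487) and S100a1 −0.38 ± 0.35 (0.809). Without the second Gr1lo array without beads 6 S100 genes were called, all but S100a8, among 167 genes in all, and without the first array S100a9 alone was called, at 3.14 (adjusted p = 0.00645).

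The contrast of S100a8 and S100a9 with the other 5 genes was then followed array by array. Each gene was centred on its own mean over the 8 arrays, because levels of different probe sets cannot be compared, and the mean of the 5 was taken from the mean of the 2. This value was −1.18 and −0.66 in Gr1lo cells with beads and −2.36 and −2.93 in Gr1lo cells without beads, against 1.47 and 1.31 in Gr1hi cells with beads and 2.08 and 2.27 in Gr1hi cells without beads. The 4 groups did not overlap, and the SD between arrays of a group, pooled over groups, was 0.29. It was below 0 on all Gr1lo arrays, where S100a8 and S100a9 lay further below their own means than the other genes did.

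The components show where each group's value came from. The S100a8 and S100a9 mean was −2.04 ± 0.31 in Gr1lo cells with beads, −2.94 ± 0.81 in Gr1lo cells without beads, 2.10 ± 0.14 in Gr1hi cells with beads and 2.88 ± 0.15 in Gr1hi cells without beads (SD, n = 2 each). The mean of the other 5 was −1.12 ± 0.06 in Gr1lo cells with beads, −0.30 ± 0.40 in Gr1lo cells without beads, 0.71 ± 0.02 in Gr1hi cells with beads and 0.70 ± 0.02 in Gr1hi cells without beads. Between the Gr1hi groups both arrays of the S100a8 and S100a9 mean were lower with beads, and the arrays of the other 5 overlapped. This has no test. By limma neither S100a8 nor S100a9 was called there (adjusted p = 0.499 and 0.448), and 25% of all genes were lower with no overlap. Between the Gr1lo groups the mean of the other 5 was lower with beads on both arrays. The S100a8 and S100a9 mean was −2.25 and −1.82 with beads and −2.37 and −3.52 without, a narrow gap beside the SDs. S100a8 alone overlapped between these groups. The Gr1lo values of S100a9 without beads lie under the background level and can carry no exact size.

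**Figure D4:**
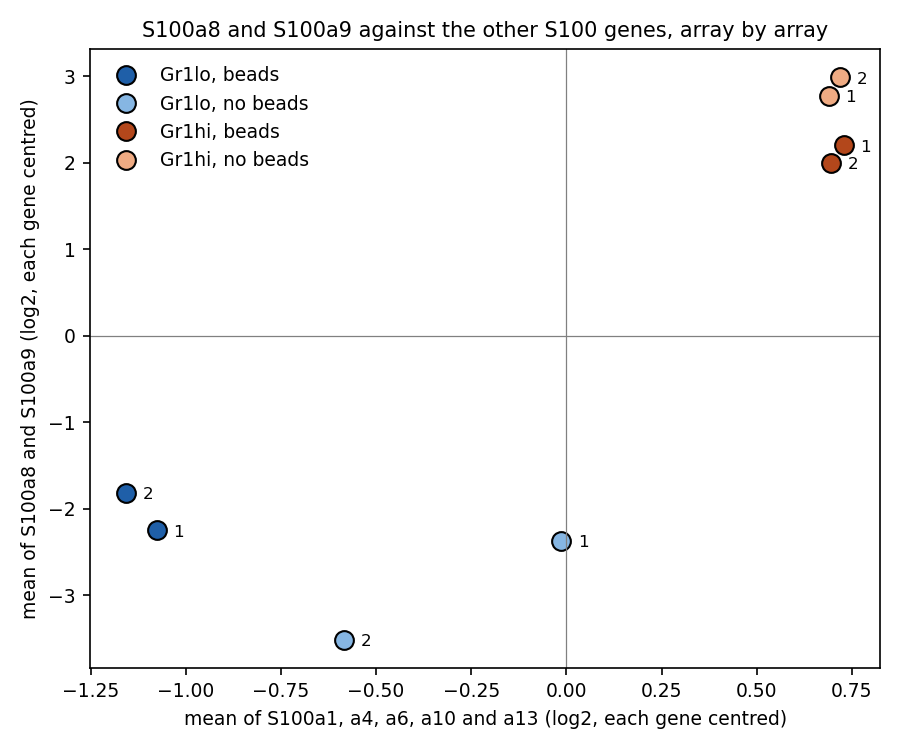
Mean of S100a8 and S100a9 (vertical axis) against the mean of S100a1, S100a4, S100a6, S100a10 and S100a13 (horizontal axis) on each of the 8 arrays, in log2 units after centring each gene on its own mean; numbers mark the array of a group. The Gr1hi groups overlap along the horizontal axis and not along the vertical one. The Gr1lo groups do not overlap on either axis, but on the vertical one their nearest arrays lie at −2.25 with beads and −2.37 without. On the horizontal axis the first Gr1lo array without beads lies at −0.01 and the second at −0.59.

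S100a9 was the gene nearest to S100a8 across the 8 arrays. After centring, the root mean square difference between them was 0.45, and no other of 8781 genes above background came closer to either. This distance counts the size of the differences between arrays as well as their order. S100a9 was itself under background on both Gr1lo arrays without beads, so all its distances rest in part on such levels. The next for S100a8 were Lcn2 (lipocalin 2, an iron-siderophore binder; 0.79), Ube2c (a mitotic ubiquitin-conjugating enzyme; 0.80), Nt5dc2 (0.87), Lpl (lipoprotein lipase; 0.90) and Emp1 (0.97). For S100a9 the next were Lpl (0.95), Nt5dc2 (0.97), Ube2c (0.99), Lcn2 (1.0) and Wfdc21 (1.12). Of these, Ube2c, Nt5dc2 and Wfdc21 were under background on all 4 Gr1lo arrays and Lcn2 and Emp1 on 3 of them, so their distances rest in part on levels under background. S100a10 had closer neighbours, Atrnl1 (0.15) and Adam8 (a metalloprotease; 0.16), then Pclaf, Foxred2 and Stmn1 at up to 0.29. Foxred2 was under background on all 4 Gr1lo arrays, Adam8 and Pclaf on 3 and Atrnl1 on 2. Their distances to S100a10 therefore also rest in part on levels under background. S100a6 was the S100 gene nearest to S100a10, at 0.71.

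The rest of the S100 family was mostly under background. Of 8 further genes listed, 6 were measured and none was called in any of the 5 comparisons by limma, with 1 at an unadjusted p under 0.05 between the subsets with beads and 1 for beads in Gr1hi cells. S100a16 alone was above background, at 8.07 and 8.42 in Gr1lo cells with beads, 7.84 and 8.23 in Gr1lo cells without beads, 8.24 and 8.03 in Gr1hi cells with beads and 8.19 and 8.32 in Gr1hi cells without beads. S100a5, which lies between S100a4 and S100a6, was under background on all 8 arrays, at 5.48 to 5.69.

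Binding partners of S100 proteins were mostly lower in Gr1lo cells. Of 12 listed, 11 were measured, and 7 were called lower in Gr1lo than in Gr1hi cells both with and without beads: Anxa1, Anxa2, Anxa4, Anxa5, Anxa6, Anxa7 and Ahnak. Among all genes 14.6% were called lower with beads and 13.6% without, and among those above background 24.3% and 20.9%. The annexins bind membranes when calcium rises, and Ahnak is a large scaffold that binds the complex of annexin A2 and S100A10. Anxa2 measured 12.24 and 12.29 in Gr1lo cells with beads and 12.86 and 12.62 in Gr1lo cells without beads, against 13.47 and 13.55 in Gr1hi cells with beads and 13.55 and 13.47 in Gr1hi cells without beads. It was lower at −1.25 with beads (adjusted p = 5.72e-05) and at −0.77 without (adjusted p = 0.000924), and Ahnak at −1.46 and −0.71. Anxa4 differed most, at −1.98 with beads and −1.40 without. The median of the 11 was −0.90 with beads and −0.71 without, beside −0.03 and −0.07 over all genes. Myh9, Iqgap1, Cacybp and Fgf1 were not called in either, and no partner was called for beads in Gr1lo or in Gr1hi cells, with 5 and 0 at an unadjusted p under 0.05.

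Of 12 receptors and adaptors of calprotectin, 11 were measured, with a median difference of −0.05 with beads and −0.09 without. Cd36, a scavenger and fatty acid receptor, was higher in Gr1lo than in Gr1hi cells. It measured 11.71 and 12.10 in Gr1lo cells with beads and 11.60 and 12 in Gr1lo cells without beads, against 6.51 and 7.21 in Gr1hi cells with beads and 4.98 and 6.18 in Gr1hi cells without beads. Both Gr1hi arrays without beads were under background, so the difference without beads was at least 28.3-fold (adjusted p = 1.72e-05). With beads it was 5.04 (adjusted p = 3.71e-05), with 1 of the 2 Gr1hi arrays above background. Alcam was called higher in Gr1lo cells without beads, by 0.43, and Bsg (basigin) and Ly96 (MD-2, the TLR4 partner) lower with beads, at −0.61 and −0.50. Of all genes, 11.8% were called higher and 14.6% lower with beads, and 10% higher and 13.6% lower without. Tlr4 measured 8.45 to 8.68 on all 8 arrays and was not called, and Ager, which encodes RAGE, was under background on all 8.

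**Figure D5:**
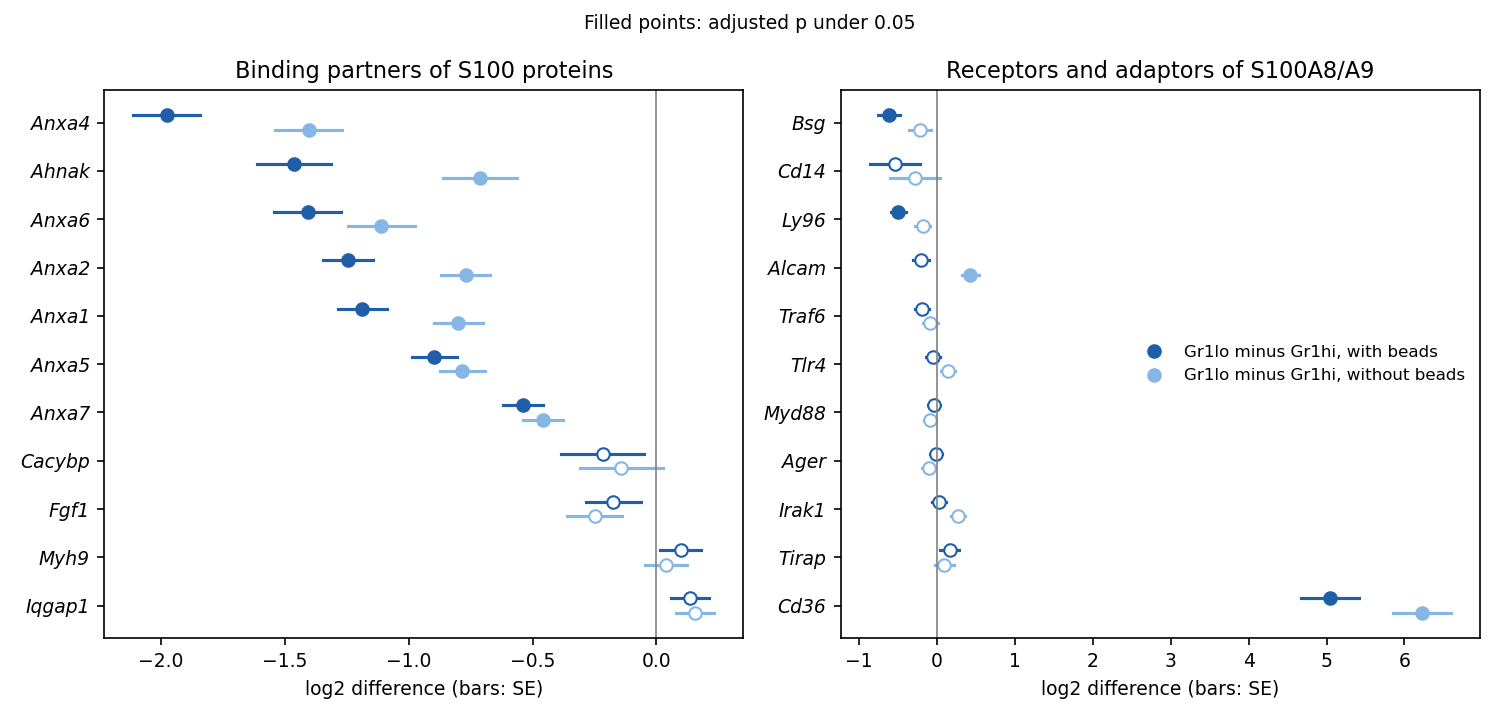
Log2 differences of Gr1lo minus Gr1hi cells (horizontal axis, bars are SE), with and without beads, for 11 binding partners of S100 proteins (left) and 11 receptors and adaptors of S100A8/A9 (right); filled points have an adjusted p under 0.05. The 6 annexins and Ahnak are filled and negative in both, and Cd36 lies far to the right.

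Of 9 measured alarmins outside the S100 family, 3 were called lower in Gr1lo cells with beads. They were Lgals3 (galectin 3), Calr (calreticulin) and Hsp90b1, at −0.87, −1.01 and −0.83. These and Camp were called lower without beads. Camp was under background in Gr1lo cells without beads and at least 1.36-fold lower. Among all genes 14.6% were called lower with beads and 13.6% without, and among those above background 24.3% and 20.9%. The median of the 9 was 0.09 with beads and −0.08 without. None was called for beads in either subset, with 4 in Gr1lo and 2 in Gr1hi cells at an unadjusted p under 0.05. Among 11 measured myeloid transcription factors, Nr4a1 (needed for nonclassical monocytes), Klf4, Cebpb and Stat3 were called higher in Gr1lo cells with and without beads, and Cebpa and Irf8 lower. Among all genes 11.8% were called higher with beads and 10% without, and 14.6% and 13.6% were called lower. Myb was called lower without beads, at levels under background. Cebpb and Cebpa encode C/EBP proteins: Cebpb differed by 1.11 with beads and 0.80 without, and Cebpa was lower, at −0.74 with beads and −0.83 without. No factor was called for beads, with 0 in Gr1lo and 2 in Gr1hi cells at an unadjusted p under 0.05.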

How the data were processed

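The values deposited by the authors are on a log2 scale, for 45101 probe sets on 8 arrays, read in R, normalised by RMA and compared with limma, per the submitters' processing notes. The values were used as they stood, and raw scans were not reprocessed. RNA was extracted with TRIzol and RNeasy, amplified and labelled with biotin, per the labels' protocols. The sources used here do not give versions or the chip definition.

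Of the probe sets, 34945 carried 1 symbol, 932 several, and 64 were controls; 34741 were matched to RefSeq, with 0 symbols changed. A model with 4 group means was fitted to all 8 arrays and 18193 genes with limma 3.58.1 in R 4.3.3 (lmFit, eBayes; prior degrees of freedom 4.48, residual 4), with Benjamini-Hochberg adjustment across all genes. Tests were two-sided, SE is the moderated standard error, and SD is the spread between arrays of a group. P-values measure the spread between these arrays. The contrast index has no test. In simulated data 200 of 18193 genes were changed. Those changed by 1 log2 unit were found in 93.3% of cases between the subsets without beads and 95% with beads. The share was 93.6% for beads in each subset and 69.4% for the difference between bead effects. Genes changed by 0.5 were found in at most 0.1% of cases. In the data 4817 genes were called between the subsets with beads and 4288 without. The cutoff is looser there than with 200 changed genes, so these rates do not describe the subset comparisons. The simulation gave all 4 groups the same spread for a gene. In the data S100a9 and S100a10 had SDs of 1.01 and 0.81 in Gr1lo cells without beads, against 0.19 and 0.03 in Gr1hi cells without beads. The 93.6% and 69.4% therefore need not hold for such genes in Gr1lo cells.

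All members and the members of each list that were called, or the smallest p, were eligible to be named, and the 5 genes nearest to S100a8, S100a9 and S100a10 by root mean square difference. Members and lists were chosen with earlier results of these data known. S100a11 was listed for the contrast index, which therefore holds 5 other genes. Alternatives were genes under background left out, mean of all probe sets, every probe set, compared arrays only, trend and robust eBayes, array weights, median centring, cyclic loess, a replicate block and each array left out. The TATA motif was added after the other 2. Promoter sequences are from RefSeq, GRCm38.p6. Tables and figures were made with Python 3.11.15, pandas 2.3.3, numpy 2.4.6 and matplotlib 3.10.9.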

Additional observations from a re-analysis of the deposited data

Results flagged for a closer look

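S100a9 arrays were ordered in opposite directions by beads in the 2 subsets: both Gr1lo arrays with beads were above both without, and both Gr1hi arrays with beads were below both without. The difference between the bead effects was 2.4235 log2 units and was not called (adjusted p = 0.487), and both Gr1lo arrays without beads were under the background level.

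For S100a4 both Gr1lo arrays with beads were below both without, and both Gr1hi arrays with beads were above both without, by only 0.04 units on average (95% interval −0.15 to 0.23; adjusted p = 0.93). The difference between the bead effects was -0.8540 and was not called (adjusted p = 0.0974).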

How the results depend on the processing

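Over 35 differences of the 7 S100 genes and up to 17 alternatives each, 544 values kept their direction and their side of the threshold, 23 lost a call, 15 gained one and 6 changed sign. All 14 differences between the subsets kept their direction, and only S100a1 and S100a13 without beads lost a call under any of the alternatives. The number of S100 genes called for beads in Gr1lo cells, 2, was 0 with the compared arrays only, 1 with cyclic loess and 0 to 5 when an array was left out. For the difference between bead effects it was 2 with trend and robust estimation (S100a4 and S100a6) and 0 to 6 when an array was left out. With cyclic loess the bead effect on S100a1 in Gr1hi cells was 0.0044. Leaving out an array moved it between -0.0850 and 0.0110, S100a13 in Gr1hi between -0.0060 and 0.1370, S100a1 in Gr1lo between -0.8955 and 0.0555, S100a8 in Gr1lo between -0.0705 and 0.7975, and the S100a1 difference between bead effects between -0.8585 and 0.0925. The contrast of S100a8 and S100a9 with the other 5 genes ranged from -5.1064 to -4.5318 between the subsets without beads, from 1.4376 to 2.0122 for beads in Gr1lo and from 2.2246 to 2.7992 for the difference between bead effects. With the replicate number as a block, 7 and 7 S100 genes were called between the subsets, 0 for beads in Gr1hi, 2 in Gr1lo and 0 for their difference, the same counts as without it. Deviations of same-numbered arrays correlated at 0.36 between the Gr1hi groups and at 0.27 between the Gr1lo groups. Across the subsets they correlated between -0.02 and 0.09. The samples share only a number, so a pairing within each subset is not known. The block was 1 term shared by both subsets and cannot check such a pairing. The cause of the changes under the alternatives was not tested. Levels near the background of 6.98 limit S100a9 and, on 1 array, S100a8 in Gr1lo cells.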
